A study of Gallus gallus with 4 samples.

Results

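Glycolytic enzymes and lactate dehydrogenases were followed in PR9692 cells, a line that was established from a sarcoma of the chicken. The members were all probe sets that the array's annotation assigns to GAPDH, PGK1, PGAM1, ENO1, LDHA, LDHB, TPI1, HK1, HK2 or ALDOC, selected by gene symbol. This gave 17 of the 38535 probe sets in the table, for 9 of the 10 symbols, out of 13009 genes that have a probe set of their own on the array. No probe set carried the symbol PGK1. Of the 17, 4 are Affymetrix control probe sets for GAPDH, which were described but not tested, and the other 13 all passed the minimum mean value of 4 required for testing.

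The line was compared in 2 stably transfected forms, the first with an anti-HOPX short hairpin RNA (shRNA) and the second with a control shRNA, with 2 Affymetrix chicken arrays each. HOPX codes for a small homeodomain protein, and the series' design text calls the anti-HOPX form non-metastatic and the control form metastatic. Both forms are the same line, labelled with the chicken strain CC.R1 and grown in the same serum-supplemented medium. Arrays of the same form are labelled biological replicates with no mention of separate cultures. The labels also do not say whether a form was a clone or a pool, so p-values measure the spread between these arrays, which may be technical, and their small number limits the precision.

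Glycolysis splits glucose into pyruvate in the cytosol. Hexokinases trap glucose as glucose 6-phosphate, aldolase and triose phosphate isomerase turn the hexose into interchangeable triose phosphates, and the later enzymes harvest ATP and NADH on the way to pyruvate. Lactate dehydrogenase then interconverts pyruvate and lactate and regenerates the NAD that GAPDH consumes. Many tumour cells and cultured cells run this pathway at a high rate even with oxygen present, and the transcripts of its later enzymes are among the abundant messages of such cells.

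All values are the authors' log2 values per probe set, which run from 0.75 to 15.97 in this table, and differences are anti-HOPX minus control. A level describes its own probe set, since probe sets differ in how strongly they bind their target. Where levels of different genes stand side by side, they are not read as relative amounts of transcript. The array medians lay between 3.12 and 3.15. Pearson's r across tested probe sets, a description only, was 0.985 between the anti-HOPX arrays and 0.992 between the control arrays, against 0.954 to 0.959 between arrays of different forms. The 2 HOPX probe sets read 2.92 to 3.54 on the anti-HOPX arrays and 3.08 to 3.72 on the control arrays, at the low end of the scale, and so do not check the labels. Of 10 markers of fibroblasts and mesenchyme fixed for this comparison, 7 read at least 4 on all arrays. VIM was at the top of the scale, and LUM was under 4 on all arrays. Single markers differed between the forms in both directions: COL1A1 read 12.97 and 12.76 on the anti-HOPX arrays against 11.16 and 11.11 on the control arrays, PDGFRB 8.16 and 7.79 against 7.10 and 7.10, and COL1A2 2.79 and 2.39 against 4.16 and 5.36. The mean over these 10 markers was 9.37 to 9.49 on the anti-HOPX arrays and 9.29 to 9.46 on the control arrays. PTPRC, CDH5, EPCAM and MYOD1, defining markers of leukocytes, endothelium, epithelium and skeletal muscle, were under 4 on every array. The exceptions among markers of other cell types were SPI1, at 8.51 and 8.90 on the anti-HOPX arrays against 8.26 and 8.07 on the control arrays, PECAM1, at 4.24 to 4.57, and CSF1R, at 4.05 on control replicate 1.

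Transcripts of the glycolytic enzymes read above 11 in both forms, apart from HK2, and none of the 13 tested probe sets passed the threshold between them. Of all 14851 probe sets tested, 7.66% passed at an adjusted p under 0.05 (limma, Benjamini-Hochberg), of which 464 were higher in anti-HOPX cells and 674 were lower. For 10 of the 13, covering HK1, ALDOC, TPI1, GAPDH, PGAM1, LDHA and the brighter probe set of ENO1, the difference lay between -0.15 and 0.13 (limma adjusted p from 0.45 to 0.969). These 10 were picked from the same data by the size of their difference, at most 0.16, so their small values are no test of stability. Their 95% intervals ran from -0.42 at the lowest to 0.36 at the highest, each for its own probe set. The other 3 were LDHB at -0.80, HK2 at -0.40 and the second ENO1 probe set at -0.39, each lower in the anti-HOPX mean and each with wide gaps between arrays. In bulk RNA, fewer cells with a transcript and less transcript per cell cannot be told apart.

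At an unadjusted p under 0.05, 1 of the 13 passed, LDHB, where 25.3% of all tested probe sets did. The arrays of the forms did not overlap at 8 of the 13 probe sets, with 4 upward and 4 downward. That is near the 55.9% of all tested probe sets without overlap. The median difference of the 13 was -0.08, against 0.0093 over all tested probe sets, and the median size of the difference regardless of sign was 0.09 against 0.27.

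**Figure D1:**
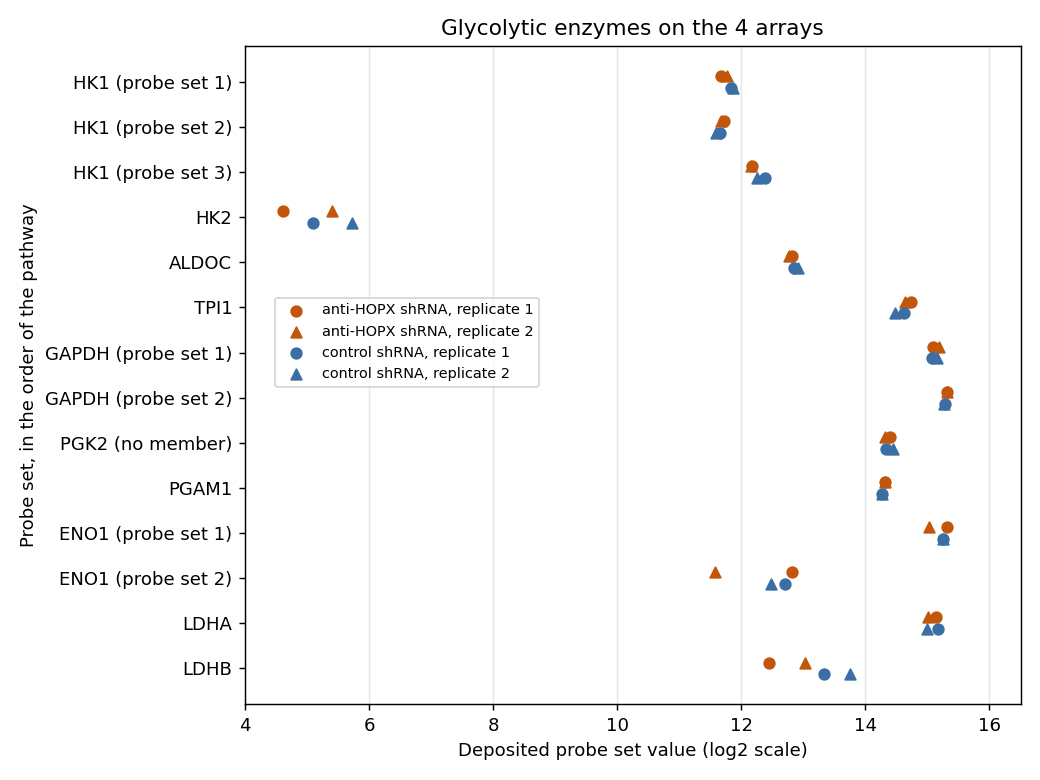
Deposited log2 value (horizontal axis) of the 13 tested member probe sets and of PGK2, which is no member, on each of the 4 arrays, in pathway order. Orange points are anti-HOPX arrays and blue points control arrays, with circles for replicate 1 and triangles for replicate 2. HK2 lies near 5 and all other probe sets lie above 11, and the colours separate most widely at LDHB.

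The first step is taken by the hexokinases. HK1, the broadly expressed hexokinase that binds mitochondria, (NCBI gene 373889) had 3 probe sets. The brightest, the third in the plot of levels, read 12.18 and 12.16 on anti-HOPX replicates 1 and 2, against 12.39 and 12.25 on control replicates 1 and 2. Both anti-HOPX arrays were lower, but by only -0.15 (95% interval -0.42 to 0.12, limma adjusted p = 0.45).

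The other HK1 probe sets did not share a direction. The first read 11.68 and 11.77 in anti-HOPX cells against 11.83 and 11.87 in control cells, a difference of -0.12 (limma adjusted p = 0.54). The second read 11.72 and 11.67 against 11.66 and 11.59, a difference of 0.08 (limma adjusted p = 0.714). In each of the 3 the forms did not overlap, and the signs disagreed.

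HK2, the hexokinase that is induced by insulin and hypoxia in mammals, read close to the minimum required for testing. Its probe set (NCBI gene 374044) read 4.62 and 5.40 on the anti-HOPX arrays and 5.09 and 5.72 on the control arrays. The forms overlapped, and in both the second replicate was higher, by 0.78 in anti-HOPX and by 0.63 in control cells. The difference of -0.40 had a 95% interval from -1.28 to 0.49 (limma adjusted p = 0.544), which holds anything between a 2.43-fold lower and a 1.40-fold higher level in the anti-HOPX cells. A change of 2-fold downward in HK2 lies within this interval.

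Aldolase and triose phosphate isomerase carry the middle of the pathway. ALDOC, the aldolase isoform known best from brain, (NCBI gene 395492) read 12.81 and 12.77 in anti-HOPX cells and 12.85 and 12.91 in control cells. Both anti-HOPX arrays lay just below both control arrays, with a difference of -0.09 (95% interval -0.33 to 0.15, limma adjusted p = 0.606). TPI1, which interconverts the triose phosphates, (NCBI gene 396435) read 14.73 and 14.64 in anti-HOPX cells and 14.63 and 14.48 in control cells. Its difference of 0.13 was the largest upward among the members and did not pass (95% interval -0.11 to 0.36, limma adjusted p = 0.454).

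GAPDH, which oxidises glyceraldehyde 3-phosphate and is widely used as a loading control, (NCBI gene 374193) had 6 probe sets. The brighter of its 2 tested probe sets, with a name ending in _x_at, read 15.32 and 15.31 in anti-HOPX cells against 15.29 and 15.26 in control cells. The other, ending in _a_at, read 15.09 and 15.19 against 15.08 and 15.15. Their differences were 0.03 and 0.02, and the wider interval ran from -0.18 to 0.23 (limma adjusted p of 0.818 and 0.897). The signs of both turned when the arrays were quantile normalised again, to -0.004 and -0.024. The 4 control probe sets for GAPDH, which target its 3' end, middle and 5' end, read 15.10 to 15.52 in anti-HOPX and 15.06 to 15.52 in control cells, with differences from -0.02 to 0.04. The gap between the 3' and 5' ends of GAPDH was -0.03 and 0.07 on the anti-HOPX arrays and 0.03 and 0.02 on the control arrays. These probe sets share 1 transcript and are not replicates of each other.

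PGAM1, the phosphoglycerate mutase of most tissues, had a gap of only 0.01 between the arrays of each form. Its probe set (NCBI gene 428969) read 14.32 and 14.31 in anti-HOPX cells and 14.26 and 14.27 in control cells. The forms did not overlap, yet the difference of 0.05 (95% interval -0.15 to 0.25, limma adjusted p = 0.755) amounts to 1.03-fold.

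ENO1, the enolase of most tissues, (NCBI gene 396017) had 2 probe sets, and anti-HOPX replicate 2 was the lowest array on both. The brighter read 15.31 and 15.02 in anti-HOPX cells against 15.25 and 15.25 in control cells, a difference of -0.08 (95% interval -0.37 to 0.20, limma adjusted p = 0.698). The second read 12.81 and 11.58 in anti-HOPX cells against 12.70 and 12.48 in control cells. On this probe set the anti-HOPX arrays lay 1.23 apart, with 1 above and 1 below both control arrays, and the difference of -0.39 had an interval from -1.36 to 0.58 (limma adjusted p = 0.587). Its value rests on single arrays, being -1.008 without anti-HOPX replicate 1 (limma adjusted p = 0.0145) and 0.224 without anti-HOPX replicate 2 (limma adjusted p = 0.317). On anti-HOPX replicate 2 the 3' control probe sets of the elongation factor EF1A exceeded the 5' ones, a gap that widens as RNA degrades, by 2.35, against 1.87 on anti-HOPX replicate 1 and 2.03 and 1.99 on the control arrays. The same gap for beta-actin was 2.94 and 2.92 on anti-HOPX replicates 1 and 2, against 2.83 and 2.85 on the control arrays, and did not set replicate 2 apart. The part of RNA integrity in the ENO1 values was not tested.

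**Figure D2:**
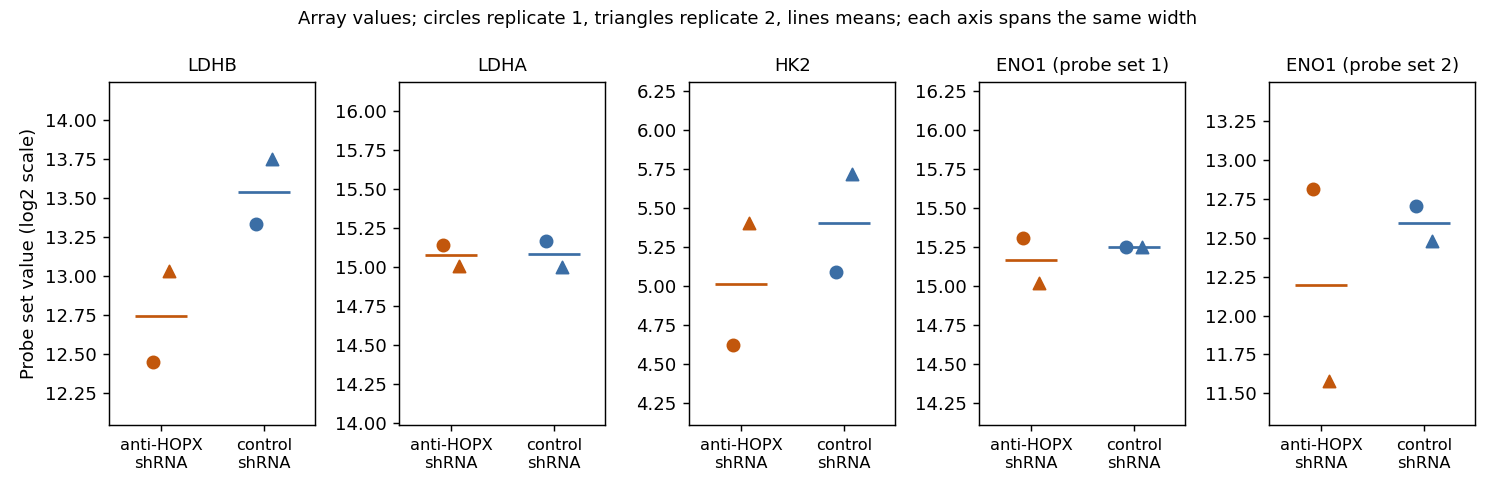
Log2 values (vertical axes, all spanning the same width) of LDHB, LDHA, HK2 and both ENO1 probe sets, with anti-HOPX arrays on the left and control arrays on the right of each panel and lines at the means. LDHB is the only panel of the 5 in which both anti-HOPX arrays lie below both control arrays, and the second ENO1 probe set has 1 anti-HOPX array at 11.58.

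The lactate dehydrogenases close the pathway. LDHA and LDHB are the muscle and heart subunits of a tetramer, and the subunit mix is classically tied to whether a tissue makes or consumes lactate. LDHA differed least among the tested member probe sets. Its probe set (NCBI gene 396221) read 15.14 and 15.01 in anti-HOPX cells and 15.17 and 15.0 in control cells, a difference of -0.01 (95% interval -0.26 to 0.24, limma adjusted p = 0.969), with a sign that turned to 0.019 when the arrays were centred on their medians.

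LDHB had the largest difference among the members. Its probe set (NCBI gene 373997) read 12.45 and 13.03 on anti-HOPX replicates 1 and 2, against 13.33 and 13.75 on control replicates 1 and 2. Both anti-HOPX arrays were below both control arrays, and in each form the second replicate was the higher, by 0.58 in anti-HOPX and by 0.42 in control cells. The means were 12.74 ± 0.41 in anti-HOPX and 13.54 ± 0.30 in control cells (SD, n = 2 each), a difference of -0.80 (SE 0.23, 95% interval -1.39 to -0.22) or 1.75-fold. By limma the unadjusted p was 0.0156 and the adjusted p 0.104, so LDHB did not pass over all probe sets. Without anti-HOPX replicate 2 the difference was -1.095 and passed (limma adjusted p = 0.0261), and without any other single array it did not, with adjusted p up to 0.469.

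Within each array, LDHB relative to LDHA gave -2.70 and -1.98 on the anti-HOPX arrays and -1.84 and -1.25 on the control arrays. Only the change of this log2 ratio can be read, since its zero depends on the probes. It was lower by 0.80 in the anti-HOPX cells on average, which restates the LDHB difference, since LDHA differed by only -0.01. The forms did not overlap, which alone fixes the two-sided exact permutation p at 0.33, the smallest that 2 arrays against 2 allow.

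**Figure D3:**
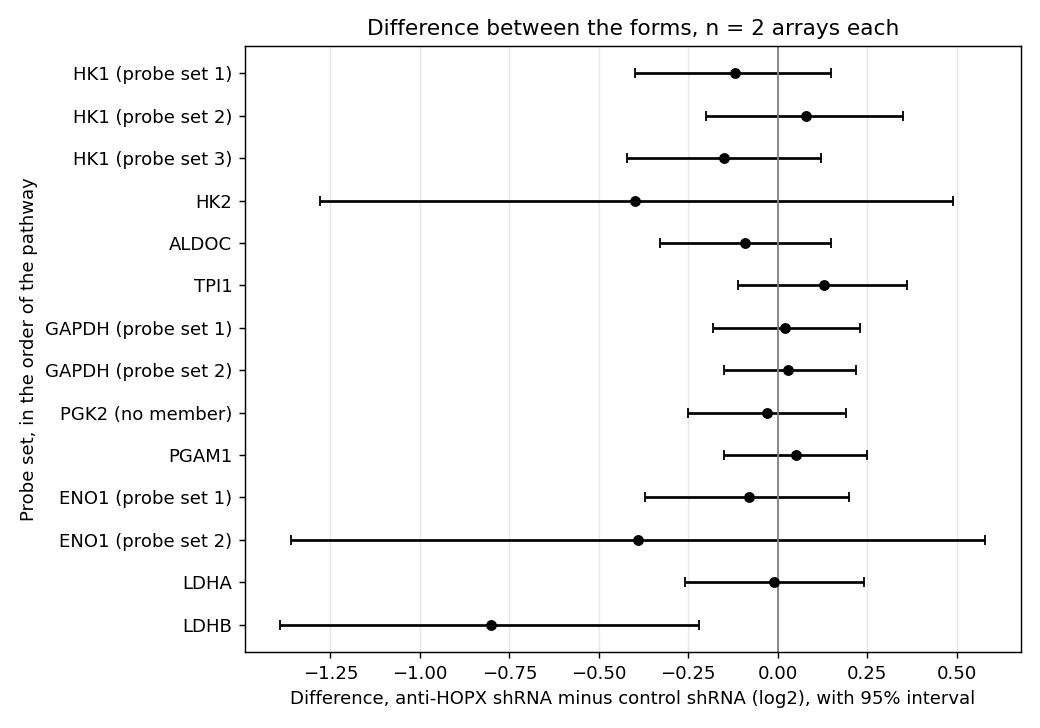
Difference between the forms (anti-HOPX minus control, log2, horizontal axis) for the 13 tested member probe sets and PGK2, with 95% intervals from limma (bars), n = 2 arrays per form. The intervals of HK2 and of the second ENO1 probe set are the widest that span 0, and that of LDHB runs from -1.39 to -0.22.

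The members' differences were set beside those of all bright tested probe sets, which include some of the members. All 4 arrays read above 14 at 6 of the 13 member probe sets, as at 151 of all tested ones (1.02%). Of those 151, 0.662% passed the threshold, which is 1 probe set, and the median size of their difference was 0.09. The median gap between the arrays of a form was 0.08 in anti-HOPX and 0.06 in control cells for the 151, against 0.25 and 0.16 for all tested probe sets. The member probe sets had median gaps of 0.10 in anti-HOPX and 0.07 in control cells. Whether values so near the top of the scale were compressed was not tested. In the gene order of the RefSeq chicken assembly GRCg7b, GAPDH, TPI1 and LDHB lie on the same chromosome, with 18 protein-coding genes between GAPDH and TPI1 and 145 between GAPDH and LDHB. HK1 and PGAM1 also share a chromosome, with 220 between them. Whether position relates to the differences was not tested.

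For the other steps of glycolysis, none of 10 measured genes, out of 19 listed, passed the threshold, where 8.87% of all 7691 genes did. With so few genes, none passing is near that share. Their median difference was -0.17, with 4 above and 6 below 0. ENO2, the neuronal enolase, read 6.28 and 5.50 in anti-HOPX and 6.75 and 6.17 in control cells, a difference of -0.57 (limma adjusted p = 0.363). BPGM, which makes 2,3-bisphosphoglycerate, read 9.46 and 9.69 in anti-HOPX and 10.22 and 10.08 in control cells, also a difference of -0.57 (limma adjusted p = 0.0842).

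The genes that fill the steps between the members were looked at after their values were known. The phosphoglycerate kinase gene is named PGK2 in the annotation, with PGK1 as a synonym in RefSeq, and read 14.40 and 14.32 in anti-HOPX against 14.34 and 14.44 in control cells, a difference of -0.03 (limma adjusted p = 0.865). GPI, glucose 6-phosphate isomerase, differed by 0.01 (limma adjusted p = 0.978) on its brightest probe set and by 0.02 (limma adjusted p = 0.948) on another. Its dimmest tested probe set read 12.28 and 12.32 in anti-HOPX against 11.93 and 11.95 in control cells. That difference of 0.36 had an interval from 0.11 to 0.62 and did not pass (limma adjusted p = 0.0985). PKLR, as the annotation calls the pyruvate kinase gene that RefSeq lists with PKM as a synonym, read 13.74 and 13.74 in anti-HOPX and 13.68 and 13.80 in control cells. PFKP, a phosphofructokinase, differed by -0.14 (limma adjusted p = 0.423). PFKL, another phosphofructokinase, read 7.60 and 7.72 in anti-HOPX against 8.04 and 7.98 in control cells. Its difference was -0.35 (limma adjusted p = 0.26). None of these genes passed.

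The other steps of glycolysis given above, together with genes that regulate, feed or drain the pathway, made up 7 lists. These held 64 genes measured by their brightest probe set, of which 3 rose, 8 fell and the other 53 did not pass. Those 11 are 17.2% of the 64, where 8.87% of all 7691 genes passed, and the median difference of the 64 was -0.10 against 0.0177 over all genes. The lists were drawn up with earlier results of these arrays known, so this share is a description. EPAS1, SLC2A10 and GFPT2 averaged under 4 in anti-HOPX cells. They met the minimum mean only through the control arrays, so their calls are no support. Without them 8 of 61 genes passed, but no such genes were taken out of the 8.87%, so the shares are unlike. None of these 8 passed with no filter on low values or at an adjusted p under 0.01, where only EPAS1, SLC2A10 and GFPT2 did. With either control array left out most of the 11 calls were lost. The calls that were kept belong to genes just named and are no support either. Without control replicate 1 and without control replicate 2 the differences of the 11 kept their signs and moved by unlike amounts. PYGB went from -1.435 to -1.37 and -1.50, and PSAT1 from 1.597 to 1.333 and 1.861. The lists that follow are small, and their counts are to be read beside the 8.87% of all genes.

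Among 9 measured regulators of glycolytic flux, 2 fell and 7 did not pass (median -0.11). EPAS1, the hypoxia-inducible factor HIF-2 alpha, read 3.95 and 2.95 in anti-HOPX against 7.74 and 7.48 in control cells. That is at least 12.2-fold lower with values under 4 raised to 4. EPAS1 met the minimum mean only through the control arrays, so its call is no support. TIGAR, which in mammals lowers fructose 2,6-bisphosphate, read 6.27 and 6.38 against 7.39 and 7.30, a fall of 2.03-fold (limma adjusted p = 0.0349). With no filter on low values the TIGAR call was lost (limma adjusted p = 0.105). PFKFB3, which makes fructose 2,6-bisphosphate, differed by -0.56 (limma adjusted p = 0.261), and PDK1, an inhibitor of pyruvate dehydrogenase, by -0.15 (limma adjusted p = 0.708). Without anti-HOPX replicate 2, PFKFB3 differed by -0.935 and passed (limma adjusted p = 0.0246).

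Of 8 measured genes listed under glucose and lactate transport, not all of which need carry either, 2 fell and 6 did not pass (median -0.18). SLC2A10, a facilitative glucose transporter family member also called GLUT10, read 2.55 and 2.35 in anti-HOPX against 5.98 and 5.59 in control cells, at least 3.45-fold lower. SLC2A10 met the minimum mean only through the control arrays, so its call is no support. SLC16A3, the lactate exporter MCT4, read 12.0 and 12.02 in anti-HOPX against 12.70 and 12.62 in control cells, a fall of 1.57-fold (limma adjusted p = 0.0253). The SLC16A3 call was lost without the intensity trend (limma adjusted p = 0.0724). SLC2A8 was at 0.43 and SLC2A13 at -0.28 (limma adjusted p of 0.139 and 0.56).

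In the pentose phosphate and hexosamine branches, 1 of 8 measured genes fell and 7 did not pass (median 0.08). GFPT2, which diverts fructose 6-phosphate into hexosamines, read 2.66 and 2.44 in anti-HOPX against 8.32 and 8.38 in control cells, at least 20.4-fold lower. Its second tested probe set read 2.86 and 2.82 against 5.56 and 5.15, at least 2.56-fold lower. Both GFPT2 probe sets met the minimum mean only through the control arrays, so the GFPT2 call is no support. Its paralogue GFPT1 differed by 0.47 (limma adjusted p = 0.0959), and by 0.615 without anti-HOPX replicate 1. The 2 other tested GFPT1 probe sets, at 0.56 and 0.76, did not pass either (limma adjusted p of 0.0923 and 0.0601). RPIA, a pentose phosphate isomerase, differed by 0.62 (limma adjusted p = 0.403), and 1 array set that value, since it was -0.017 without anti-HOPX replicate 1 and 1.253 without anti-HOPX replicate 2 (limma adjusted p = 0.0102).

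Of 4 measured genes of gluconeogenesis and glycogen, UGP2 rose and PYGB fell (median -0.23). UGP2, which makes UDP-glucose, read 13.74 and 13.90 in anti-HOPX against 13.08 and 13.23 in control cells, a rise of 1.59-fold (limma adjusted p = 0.0264). The UGP2 call was lost without the intensity trend (limma adjusted p = 0.0811). PYGB, a glycogen phosphorylase, read 6.80 and 6.84 against 8.32 and 8.19, a fall of 2.70-fold (limma adjusted p = 0.0127). With no filter on low values the PYGB call was lost (limma adjusted p = 0.0619). PYGL differed by -0.42 and PCK2 by -0.03, and neither passed (limma adjusted p of 0.202 and 0.944).

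Of 18 measured genes of pyruvate dehydrogenase and the citrate cycle, 1 fell and 17 did not pass (median -0.01). DLD, the shared dihydrolipoamide dehydrogenase subunit, read 11.07 and 11.28 in anti-HOPX against 11.89 and 11.77 in control cells, a fall of 1.58-fold (limma adjusted p = 0.0434). Its other 3 tested probe sets differed by -0.65, -0.67 and -0.71, and the third of these missed the threshold (limma adjusted p = 0.0736). The call was lost with a robust variance model (limma adjusted p = 0.0507), with median centring (0.0512) and without the intensity trend (0.0885). SUCLG1 stood at 0.67 and DLAT at 0.50 (limma adjusted p of 0.0887 and 0.27). The second tested SUCLG1 probe set read 4.62 and 3.75 in anti-HOPX against 4.49 and 4.03 in control cells. Its difference of -0.07 (limma adjusted p = 0.925) did not share the direction of the first.

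Of 7 measured genes of the glycerol and serine branches, 2 rose, 1 fell and 4 did not pass (median -0.23). PSAT1, of serine synthesis, read 9.11 and 9.38 in anti-HOPX against 7.39 and 7.92 in control cells, a rise of 3.02-fold (limma adjusted p = 0.0213). With no filter on low values the PSAT1 call was lost (limma adjusted p = 0.107). GOT1, the cytosolic aspartate aminotransferase of the malate-aspartate shuttle, rose by 0.73 (limma adjusted p = 0.042). The GOT1 call was lost without the intensity trend (limma adjusted p = 0.0771), and its difference was 0.641 without anti-HOPX replicate 1. GPD2, the mitochondrial enzyme of the glycerol phosphate shuttle, fell by 0.77 (limma adjusted p = 0.0425), while its 2 other tested probe sets, at -0.58 and -0.57, did not pass (limma adjusted p of 0.13 and 0.235). The GPD2 call was also lost without the intensity trend (limma adjusted p = 0.0597). PSPH and GOT2 differed by -0.69 and -0.34 and did not pass (limma adjusted p of 0.0784 and 0.168). The other tested GOT2 probe set, at -0.74, did not pass either (limma adjusted p = 0.0954). BPGM and GOT2 passed without anti-HOPX replicate 2 (limma adjusted p of 0.0435 and 0.0387).

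**Figure D4:**
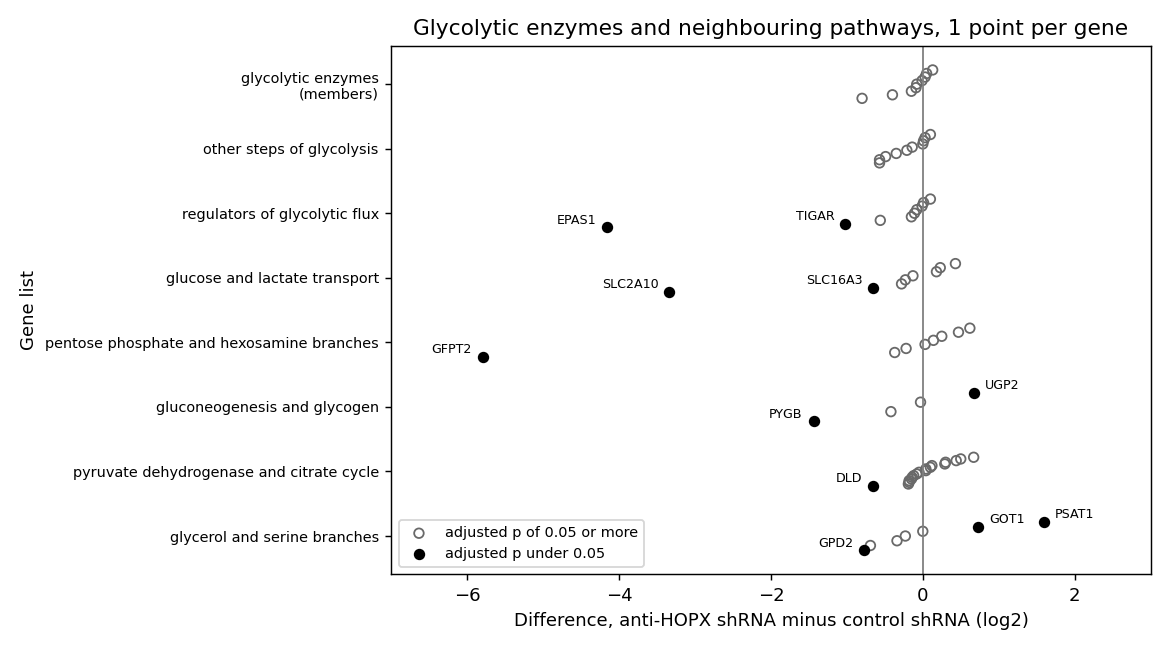
Difference between the forms (anti-HOPX minus control, log2, horizontal axis) for each measured gene of the 9 glycolytic members and of the 7 other lists, 1 point per gene at its brightest probe set. Filled points passed an adjusted p under 0.05 and are named, and open points did not. The members and the other steps of glycolysis hold no filled point, and values with an array under 4 (EPAS1, SLC2A10, GFPT2) are drawn unbounded.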

How the data were processed

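Each probe set has 1 deposited log2 value per array. Per the submitters' processing notes, GCRMA and Partek 6.4 were used, without stated roles. No other step is named by any source used. GCRMA models the background by probe sequence, then makes arrays comparable and combines the probes of a set, so an overall difference in RNA amount between arrays is removed and dim probe sets lie at a narrow floor.

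Groups came from the sample titles. The 96 control probe sets were left out, and 14851 probe sets with a mean of at least 4 were fitted with limma 3.58.1 in R 4.3.3 (intensity trend, no block, two-sided, Benjamini-Hochberg over all; 2 residual degrees of freedom, prior of 3.54). The fit was run on simulated data with independent normal errors, which cannot show how its error rates hold for these arrays. Genes were named from the platform annotation, updated through RefSeq identifiers (98.8% matched), and a gene outside the members was represented by its brightest tested probe set. Named are all members, HOPX, every listed gene that passed and up to 2 others per list by size of change. PGK2, GPI, PKLR, PFKP and PFKL are named besides. Intervals are 95% limma intervals. Where an array read under 4, folds are bounds with values raised to 4. The members and lists were chosen with earlier results of these data known. Alternatives were other filters, variance models, normalisations and thresholds, a replicate block and leaving out each array. No sequences were used here.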

Additional observations from a re-analysis of the deposited data

How the results depend on the processing

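No glycolytic probe set and no glycolytic gene passed under any change of filter, variance model, normalisation or threshold, or without _x_at, _s_at and _a_at probe sets. With the replicate number as a block, 1 of each passed, LDHB (limma adjusted p = 0.00124), and leaving out each array in turn gave 0 to 1 of each. The labels give no pairing beyond the number. The replicate 2 minus replicate 1 differences of the forms correlated at 0.25 across tested probe sets. The median difference of the glycolytic probe sets was -0.009 with the GAPDH control probe sets added, a choice made after seeing the data, and -0.082 to 0.039 with each array left out.

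The count over all probe sets, 1138, became 274 with no filter on low values, 247 at an adjusted p under 0.01, 2698 with the replicate block and 142 to 1734 without single arrays. The 11 calls among other pathway genes, whose alternatives were added after seeing the data, became 3 with no filter, 6 without the intensity trend, 6 without _x_at, _s_at and _a_at probe sets, 3 at an adjusted p under 0.01, 6 with a 2-fold minimum, 18 with the replicate block and 2 to 16 without single arrays.

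The 3 calls left with no filter were EPAS1, SLC2A10 and GFPT2, and the same 3 were left at an adjusted p under 0.01. These genes met the minimum mean only through the control arrays, so their calls are no support. None of the other reported calls was kept in either setting. Signs turned for some differences near 0 and, when single arrays were left out, for some larger ones. The larger ones included the second ENO1 probe set (-0.392 as reported), SLC2A13 (-0.277) and RPIA (0.618). Quantile normalisation gave -0.024 and -0.004 for GAPDH and 0.071 for PCK2, and median centring gave 0.019 for LDHA. Without single arrays the ranges were -0.026 to 0.072 for the _a_at probe set of GAPDH, -0.097 to 0.079 for LDHA, -0.229 to 0.060 and -1.008 to 0.224 for ENO1, -0.093 to 0.030 for PCK2, -0.631 to 0.078 for SLC2A13, -0.402 to 0.111 for PDK1 and -0.017 to 1.253 for RPIA. In these fits a lone array is assumed to vary like the others. Apart from array removal, the cause of these moves was not tested. HK2 lies near the low end of the scale, with an SE of 0.35.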
